A study of Mus musculus with 8 samples.

Results

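The mitochondrial ribosomal proteins were taken as the protein-coding genes whose mouse symbol begins with Mrpl or Mrps and a digit, a rule that uses names and no measured value. It found 78 members among the 55385 genes of the count table. By structure, 30 members are large-subunit proteins with a bacterial homologue and 21 are large-subunit proteins found only in mitochondria, a class that includes Mrps30 and Mrps18a despite their names. Of the small-subunit proteins, 17 have a bacterial homologue and 9 are particular to mitochondria. The remaining member, Mrps36, carries the name but is known as a component of the 2-oxoglutarate dehydrogenase complex.

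All libraries were made from R1 mouse embryonic stem cells (mESCs) of wild-type genotype, grown in N2B27 medium with Lif and the kinase inhibitors known as 2i. Cells were infected for 2 days with a lentivirus carrying a small hairpin RNA and selected with puromycin for 3 days. Eftud2, a GTPase of the U5 snRNP of the spliceosome, was the target of shRNA1 (3 libraries), aimed at its 3′ UTR, and of shRNA2 (3 libraries), aimed at its coding sequence and described as the more potent. A non-targeting hairpin, nt-shRNA, was used in 2 control libraries. The comparisons address how transcript levels changed upon Eftud2 knockdown (KD) with the weaker and the stronger hairpin. Infected cells were selected as a population, not cloned, and the controls went through the same infection and selection.

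The mitochondrial ribosome, or mitoribosome, translates the mRNAs of the mitochondrial genome, which encode core subunits of the oxidative phosphorylation (OXPHOS) complexes. Its RNAs are made inside the organelle, whereas each of its proteins is encoded in the nucleus, made on cytosolic ribosomes and imported. Many genes for mitochondrial proteins have promoters with sites for the factors NRF1, GABP of the ETS family, and YY1.

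The deposited counts summed to between 19569525 and 29871048 per library. Values per library are CPM, counts scaled to a common library size after TMM normalization, and the tests were edgeR's quasi-likelihood test with Benjamini-Hochberg adjustment over the 17445 genes that passed the filter on low counts, called at an adjusted p under 0.05. Eftud2 itself was at 262.3 and 255.7 CPM with nt-shRNA, at 231.9, 229.2 and 225.3 with shRNA1, and at 198.2, 202.1 and 234.7 with shRNA2. Its level with both hairpins lay below that of both control libraries, by -0.18 ± 0.07 (SE) on the log2 scale for shRNA1 (edgeR adjusted p = 0.0514) and by -0.29 ± 0.07 for shRNA2 (edgeR adjusted p = 0.00122). The shRNA1 value passed under 7 of the 19 alternative fits, among them those without shRNA2 replicate 2 or 3, at -0.18 each. The 8 pluripotency markers, among them Pou5f1, Nanog and Sox2, were all detected and summed to between 6583 and 6974 CPM across the libraries. Within that sum, 5 of the 8 were higher and 2 lower with shRNA2, from 1.32 for Klf4 and 0.76 for Nanog to -0.29 for Pou5f1 and -0.96 for Dppa5a (log2 fold changes), and 3 were higher and 2 lower with shRNA1. The 8 fibroblast markers summed to between 18.67 and 28.91 CPM, with 1 or 2 of them at 0 in each group, and the 8 primitive endoderm markers to between 258.1 and 325.7 CPM, mostly from Lama1 and Col4a1. With shRNA2, Col1a2 was higher (1.66) and Pdgfrb lower (-0.74) among the 5 fibroblast markers tested, and Lama1 was higher (0.36) and Gata6 (-0.75) and Col4a1 (-0.88) lower among the 6 endoderm markers tested, while with shRNA1 Col1a2 (1.27) was the call in these lists. The part of these markers in the members' results was not tested. Since RNA was taken from whole cultures, fewer cells of a type and less RNA per cell cannot be told apart.

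Member promoters held short factor motifs more often than promoters at large. The windows searched ran from 250 bases before to 50 bases after the RefSeq start site (GRCm38.p6), and 69 of the 78 members had an entry, with 75 promoters between them. The palindromic NRF1 motif, the letters in capitals in the first 3 windows printed here, was found in 3 member promoters (4.0%), against 0.971% of all 32851 promoters and 1.89% of the 14283 promoters of tested coding genes. The ETS motif CCGGAAG, searched on both strands, was found in 26 (34.7%), against 8.86% of all and 15.9% of tested coding promoters. The YY1 motif AAGATGGC, also searched on both strands, was found in 12 of the 75, against 2.75% of all and 3.99% of tested coding promoters. Its letters include ATG, and in 8 of the 12 members the match began at or after the start site. Of the members with an NRF1 match, Mrpl32 and Mrpl39 were called with neither hairpin, and Mrpl9 is described later. The following 30-base windows are each written along the gene's strand with the motif in capitals. They show the 3 NRF1 matches, and 4 ETS matches and 2 YY1 matches from members described later. Their positions are chr3:94443298-94443327 (plus strand) for Mrpl9, chr13:14613105-14613134 (minus) for Mrpl32, chr16:84735350-84735379 (minus) for Mrpl39, chr9:105053238-105053267 (plus) for Mrpl3, chr9:98601672-98601701 (minus) for Mrps22, chr14:20393546-20393575 (minus) for Mrps16, chr7:105811306-105811335 (minus) for Mrpl17, chr13:73330968-73330997 (plus) for Mrpl36 and chr7:78783013-78783042 (plus) for Mrps11.
Mrpl9: aggcgcagctGCGCATGCGCggggtccttc
Mrpl32: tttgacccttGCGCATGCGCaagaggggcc
Mrpl39: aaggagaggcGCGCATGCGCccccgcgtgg
Mrpl3: tgagaaacggaCCGGAAGtggcccggctgt
Mrps22: aacctctcgagCCGGAAGttgctctatcga
Mrps16: ttgggggcgctCTTCCGGgcttcaggctct
Mrpl17: gcatgctccgcCCGGAAGgcgcctcctcca
Mrpl36: cgtgaccttacGCCATCTTtcttcctggcg
Mrps11: ctacgggcgccGCCATCTTtctgtcttccc

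The ETS motif was present in promoters of 7 of the 19 matched members that rose with shRNA2, of 5 of the 12 that fell and of 13 of the 37 that did not pass the test. For YY1 these numbers were 5, 3 and 4, in the same order. These are matches of letters in a fixed window, given as a description. RefSeq start sites can differ from those of GENCODE, and the Mrpl36 window lies inside the gene's GENCODE span (chr13:73328513-73332178). Member genes also tended to lie head to head with a neighbour. In the GENCODE annotation, 33 of the 78 members (42.3%) had the start site of a protein-coding gene on the opposite strand within 1000 bases, against 10.8% of the 21897 protein-coding genes. Among these partners, the only member paired with another member was the couple Mrpl46 (chr7:78775236-78783531, minus strand) and Mrps11 (chr7:78783119-78792989, plus strand), whose 5′ ends overlap. Chromosome 11 held the most members, with 11.

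Per exon length the members were well expressed in mESCs. Their median level with nt-shRNA was 17.95 RPKM (normalized CPM per kilobase of exon), against a median of 3.74 RPKM over all tested genes. Mrpl2, a homologue of the bacterial protein L2 beside the peptidyl transferase centre, had the highest level at 74.47 ± 1.08 RPKM (SD, n = 2). Mrpl28 followed at 73.53 ± 4.19 RPKM, within its own SD of Mrpl2, and Mrpl34 at 67.36 ± 5.0 RPKM, below Mrpl28 by little more than the SD of either. Mrps24, the homologue of bacterial S3, came next at 54.67 ± 4.48 RPKM, below Mrpl34 by more than either SD. Mrpl12, the stalk protein that helps recruit translation factors in bacteria, stood at 46.68 ± 1.15 RPKM. The lowest levels above 0 were those of Mrpl33, at 4.657 ± 0.129 RPKM, and Mrpl48, at 2.689 ± 0.00754 RPKM. This order depends on the length used: with the length of the principal transcript in place of all exons, 6 of the 10 highest members stayed among the 10 highest, and Mrpl33 moved to rank 8.

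Mrpl53 (chr6:83109040-83109939) was the sole member that failed the filter. It had 0 counts in all 8 libraries, a level that 3 counts would put at between 0.1045 and 0.1481 CPM. Of its exon bases, 88.0% overlapped Gm42688, and the counting left out fragments that fell in more than 1 gene. The other 77 members passed the filter and were tested.

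**Figure D1:**
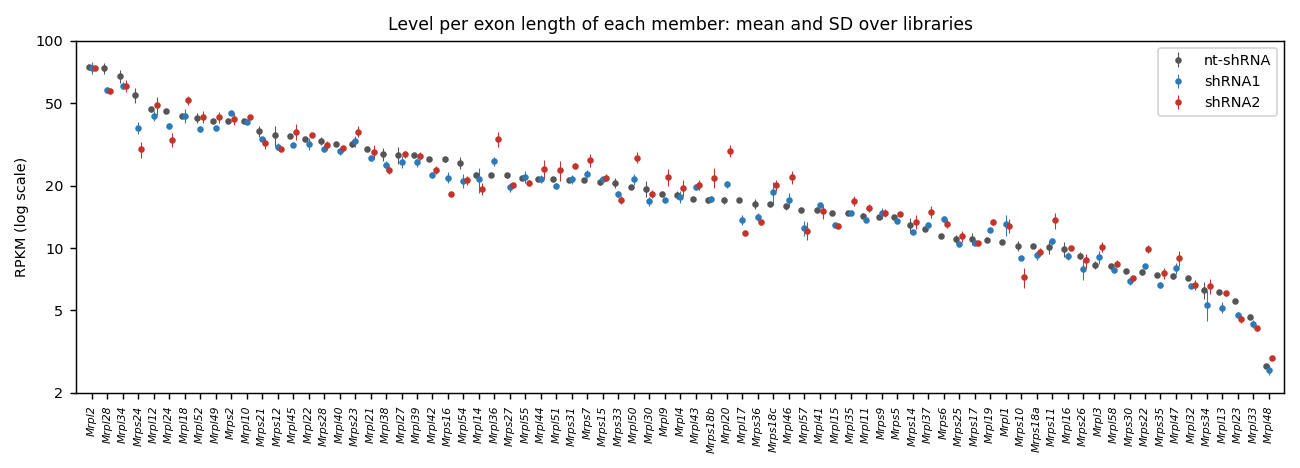
Mean level of each detected member in RPKM (log axis) with SD over 2 nt-shRNA (grey), 3 shRNA1 (blue) and 3 shRNA2 (red) libraries, ordered by the nt-shRNA mean. Levels run from 74.47 RPKM for Mrpl2 to 2.689 RPKM for Mrpl48, and for most members the 3 groups lie close together.

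The members' summed share of all counts was 0.3788% ± 0.000141 (SD, n = 2) with nt-shRNA, 0.3853% ± 0.00167 (n = 3) with shRNA1 and 0.3999% ± 0.00784 (n = 3) with shRNA2. The 3 ranges did not overlap. On the TMM scale, which corrects for the makeup of each library, the median log2 difference of the members from the nt-shRNA mean was -0.07, -0.12 and -0.07 in the 3 shRNA1 libraries and 0.01, 0.07 and -0.02 in the 3 shRNA2 libraries, with the 2 control libraries at 0.02 and -0.02. All shRNA1 libraries thus lay below both controls, whereas 2 of the shRNA2 libraries lay between the controls and shRNA2 replicate 2 lay above them.

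With shRNA1, 11 of the 77 tested members fell and 3 rose. Over all 17445 tested genes 17.1% were called lower and 13.8% higher (30.9% either way), so members passed the test no more often than genes at large in either direction. Their median log2 fold change was -0.10, beside -0.01 over all tested genes. No change in a member exceeded 1.5-fold, and the calls ranged from 0.19 to 0.52 in absolute log2 fold change. Of the 11 that fell, 8 were large-subunit proteins (of 50 tested) and 3 were small-subunit proteins (of 26), and of the 3 that rose, Mrpl1 and Mrpl20 belong to the large subunit and Mrps6 to the small.

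These shRNA1 counts rested on a small control group and on the scaling. With library size alone in place of TMM, the median over all genes moved to 0.11 and that of the members to 0.01, which left the members 0.096 below the median gene either way (log2), while the calls became 12 higher and 4 lower. Without nt-shRNA replicate 1 the calls were 4 lower, without nt-shRNA replicate 2 they were 7 lower, and without shRNA1 replicate 1, 2 or 3 they were 9, 7 and 14 lower. All 3 higher calls were lost when either control library or shRNA1 replicate 1 was left out, 1 member was higher without shRNA1 replicate 2, and 5 were higher without shRNA1 replicate 3. With library size alone the shRNA1 falls of Mrpl24, Mrpl13, Mrpl42, Mrpl54 and Mrpl57 were -0.13, -0.14, -0.15, -0.17 and -0.18 and missed the threshold, and those of Mrps16 and Mrpl17 were -0.18 and -0.20 and passed.

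With shRNA2, 20 members rose and 15 fell. Over all tested genes 27.2% were called higher and 28.7% lower (55.9% either way), so the members' share of higher calls was near the background and that of lower calls was below it. Their median log2 fold change was 0.04, beside 0.00 over all tested genes, and its sign turned to -0.005 without nt-shRNA replicate 2 and likewise without shRNA2 replicate 2. The largest changes were those of Mrps24, which fell by 0.87, and Mrpl20, which rose by 0.79 on the log2 scale. These were the sole members whose change exceeded 1.5-fold. The large subunit had 13 higher and 9 lower of 50 tested, and the small subunit 7 higher and 5 lower of 26. Without nt-shRNA replicate 1 the counts were 11 higher and 8 lower, and with library size alone they were 27 higher and 7 lower. With the filter and the groups changed, or with another test, between 17 and 21 were higher and 15 lower.

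**Figure D2:**
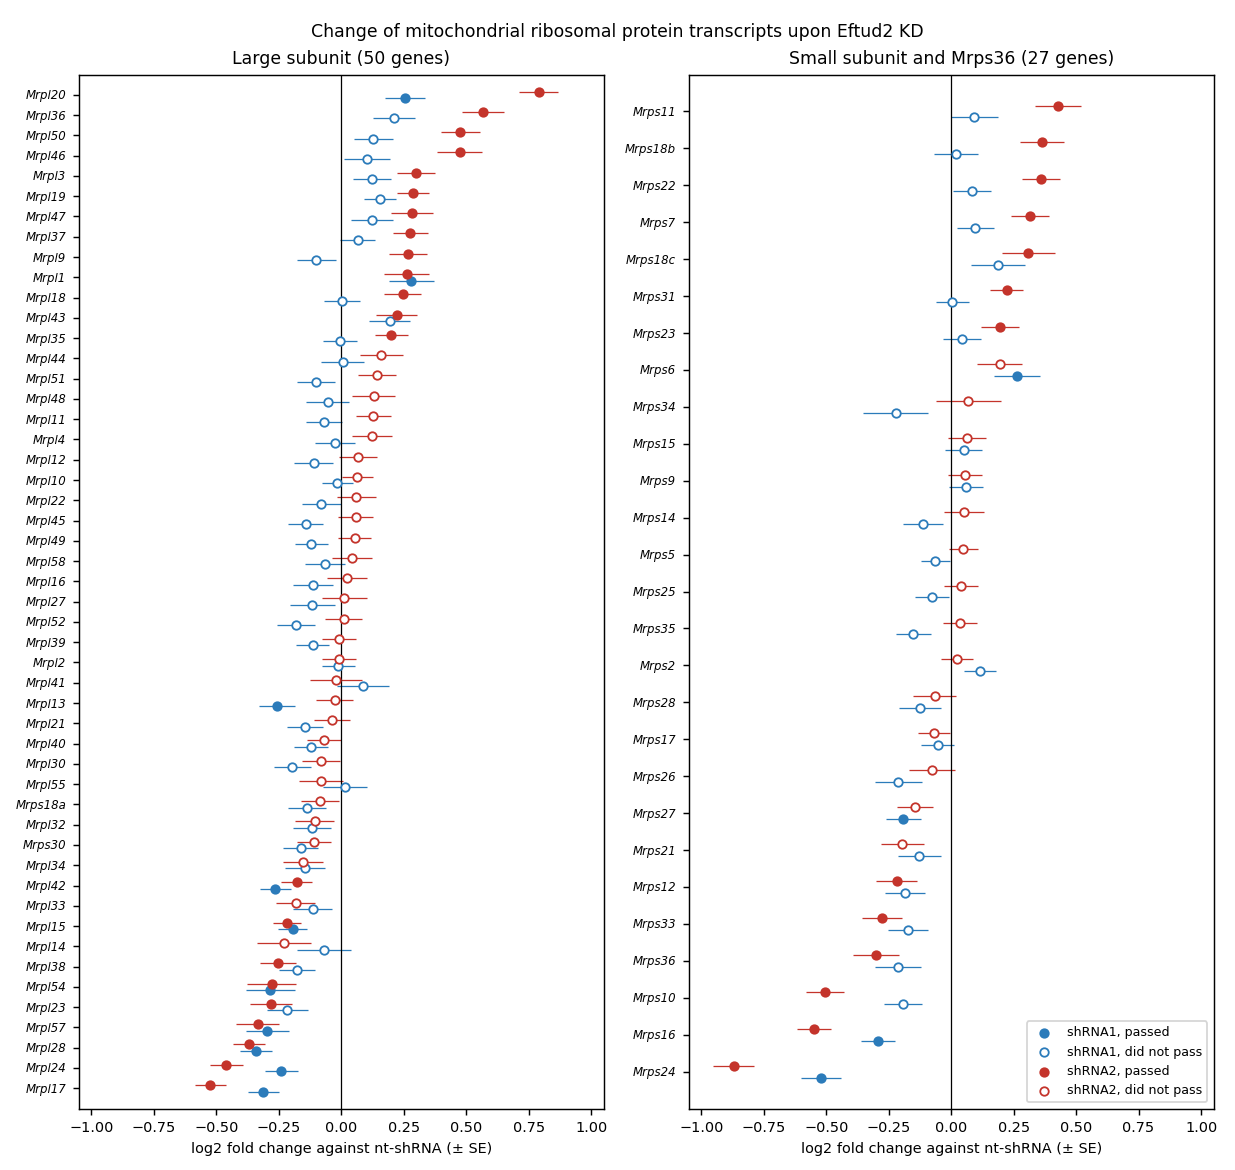
Log2 fold change of the 77 tested members against nt-shRNA (± SE), for shRNA1 (blue) and shRNA2 (red), in the large subunit (left) and in the small subunit with Mrps36 (right). Filled points had an adjusted p under 0.05, and values reach from -0.87 for Mrps24 to 0.79 for Mrpl20, both with shRNA2.

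The members that fell most with shRNA2 came from both subunits and included homologues of core bacterial proteins. Mrps24 (chr11:5703983-5715680), the S3 homologue near the mRNA entry site, was at 84.79 and 75.5 CPM with nt-shRNA, at 54.49, 52.96 and 59.78 with shRNA1, and at 44.13, 39.82 and 47.55 with shRNA2. The 3 groups did not overlap, and every shRNA2 library was below every shRNA1 library. Its log2 fold change was -0.52 ± 0.08 (SE) with shRNA1 (edgeR adjusted p = 8e-05) and -0.87 ± 0.08 with shRNA2 (adjusted p = 4.6e-08), and shRNA2 lay 0.35 ± 0.08 below shRNA1 (log2 fold change -0.35, adjusted p = 0.00153). Of its exon bases, 15.4% were shared with Urgcp. Separation of groups was common among genes at large. With shRNA2 against nt-shRNA, 35.4% of all tested genes lay higher without overlap and 36% lower, and with shRNA1 26.6% and 30.2%. Between the hairpins these shares were 23.6% and 24.1%. Of the 77 members, 29 lay higher and 23 lower with shRNA2, 12 and 39 with shRNA1, and 31 and 6 between hairpins.

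Mrps16 (chr14:20389304-20393634), whose bacterial homologue S16 is an early-binding protein of the small subunit, was at 78.72 and 75.36 CPM with nt-shRNA, at 61.88, 59.58 and 66.95 with shRNA1, and at 52.04, 53.8 and 52.05 with shRNA2. It too was ordered without overlap, from the control down to shRNA2. In log2 units it stood -0.29 ± 0.07 from the control with shRNA1 (adjusted p = 0.00283) and -0.55 ± 0.07 with shRNA2 (adjusted p = 1.58e-06). The shRNA1 value missed the threshold without nt-shRNA replicate 1, at -0.26.

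Mrpl17 (chr7:105803206-105811099), a large-subunit protein near the exit of the peptide tunnel in bacteria, was at 130.5 and 127.7 CPM with nt-shRNA, at 100.9, 99.85 and 110.9 with shRNA1, and at 90.12, 90.69 and 88.49 with shRNA2. Each library of a hairpin was below both controls, and the hairpins did not overlap with each other. It fell with both hairpins, by -0.31 ± 0.06 (adjusted p = 0.000827) and -0.52 ± 0.06 (adjusted p = 9.19e-07) on the log2 scale. Its promoter is among those with an ETS match shown above.

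Mrps10 (chr17:47368887-47381417), the S10 homologue, stood at 85.99 and 79.54 CPM in the controls, at 72.93, 72.06 and 72.15 with shRNA1, and at 60.36, 51.23 and 63.38 with shRNA2. The shRNA1 libraries lay close together just below the controls, and the shRNA2 libraries were lower and more spread. The fall passed the test with shRNA2 (log2 fold change -0.51 ± 0.08, adjusted p = 2.05e-05), whereas with shRNA1 the value was -0.19 ± 0.08 (adjusted p = 0.0649). The shRNA1 value passed under 8 of the 19 alternatives. Among them were the fits without shRNA2 replicate 2 or replicate 3, which change the shared estimate of the spread, at -0.19.

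Mrpl24 (chr3:87919506-87923672), whose bacterial homologue L24 helps start large-subunit assembly, was at 104.1 and 102.4 CPM with nt-shRNA, at 84.39, 88.4 and 89.3 with shRNA1, and at 73.62, 70.39 and 81.05 with shRNA2. The groups were again separate and in the same order. It fell with both hairpins, shRNA1 giving -0.24 ± 0.07 in log2 units (adjusted p = 0.01) and shRNA2 giving -0.46 ± 0.07 (adjusted p = 1.05e-05). The call for shRNA1 was lost without either control library, at -0.23 and -0.25, and 26.3% of its exon bases were shared with Rrnad1.

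Mrpl28 (chr17:26123500-26126613), the L28 homologue, fell with both hairpins. It was at 105.6 and 97.38 CPM with nt-shRNA, at 78.08, 78.38 and 83.35 with shRNA1, and at 76.82, 78.24 and 80.64 with shRNA2, so that the hairpins overlapped while the controls stood apart. Its log2 difference from the control was -0.34 ± 0.06 with shRNA1 (adjusted p = 0.000452) and, with shRNA2, -0.37 ± 0.06 (adjusted p = 7.29e-05), and shRNA2 against shRNA1 gave -0.03 ± 0.06 (adjusted p = 0.765). With GC offsets Mrpl28 was at -0.21 with shRNA1 and -0.17 with shRNA2, and both still passed. Mrpl57, a protein found only in mitochondrial ribosomes, also fell, with -0.30 ± 0.09 (adjusted p = 0.013) and -0.33 ± 0.09 (adjusted p = 0.00287). The shRNA1 call of Mrpl57 was lost without either control library or shRNA1 replicate 1 or 2, with values between -0.25 and -0.32. Mrpl15, a homologue of bacterial L15, fell by -0.20 ± 0.06 (adjusted p = 0.0139) and -0.22 ± 0.06 (adjusted p = 0.00331).

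Other falls were smaller or were called with 1 hairpin. Mrpl54, a mitochondria-specific large-subunit protein, was at -0.28 ± 0.10 with both hairpins (adjusted p = 0.0327 and 0.0209), but missed the threshold under 11 and 5 of the 19 alternatives, among them the fits without nt-shRNA replicate 1, at -0.22 each. The shRNA1 call of Mrpl54 was also lost without nt-shRNA replicate 2 or shRNA1 replicate 1 or 2, at -0.35, -0.25 and -0.25, and its shRNA2 call without shRNA2 replicate 3, at -0.25. With GC offsets Mrpl54 was at -0.14 and -0.07 and passed with neither hairpin. Mrpl42, also mitochondria-specific, was at -0.26 ± 0.06 with shRNA1 (adjusted p = 0.0033) and at -0.18 ± 0.06 with shRNA2 (adjusted p = 0.0211), the latter lost without nt-shRNA replicate 1 or 2 or shRNA2 replicate 3, at -0.19, -0.18 and -0.16, and with library size alone, at -0.09. Mrpl13, the L13 homologue, fell with shRNA1 alone among the calls: its libraries were at 48.62 and 49.26 CPM with nt-shRNA, at 43.3, 41.36 and 38.32 with shRNA1, and at 46.5, 48.93 and 48.7 with shRNA2. Its shRNA1 libraries were the lowest, and the direct comparison of the hairpins gave a log2 fold change of 0.23 ± 0.07 for shRNA2 against shRNA1 (adjusted p = 0.0108). The shRNA1 call of Mrpl13 (log2 fold change -0.26, adjusted p = 0.0109) was lost without either control library, at -0.27 and -0.25. Mrps27 was likewise called lower with shRNA1 (-0.19 ± 0.07, adjusted p = 0.0485) and not with shRNA2 (-0.15 ± 0.07, adjusted p = 0.088). With the replicate block its shRNA1 value was -0.17 and missed the threshold. Mrps36, the dehydrogenase component, was at -0.21 ± 0.09 with shRNA1 (adjusted p = 0.0883) and -0.30 ± 0.09 with shRNA2 (adjusted p = 0.00999), and the latter was lost without nt-shRNA replicate 1, at -0.25. The further members called lower with shRNA2 were Mrpl23 (-0.28), Mrps33 (-0.28), Mrpl38 (-0.25) and Mrps12 (-0.22).

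Among the members that rose, Mrpl20 (chr4:155802878-155809975) changed most. The bacterial homologue L20 is needed early in large-subunit assembly. It was at 29.09 and 27.59 CPM with nt-shRNA, at 35.18, 33.22 and 32.94 with shRNA1, and at 49.25, 52.0 and 45.62 with shRNA2. The 3 groups rose in this order without overlap. The log2 fold change was 0.25 ± 0.08 with shRNA1 (edgeR adjusted p = 0.0212) and 0.79 ± 0.08 with shRNA2 (adjusted p = 1.16e-07), and shRNA2 lay 0.54 ± 0.07 above shRNA1 (adjusted p = 1.76e-05). The shRNA1 call was lost without either control library or shRNA1 replicate 1, with values between 0.21 and 0.29.

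Mrpl36 (chr13:73328513-73332178), the homologue of the small zinc-binding protein L36, was at 26.58 and 25.85 CPM with nt-shRNA, at 31.3, 31.05 and 28.77 with shRNA1, and at 39.62, 41.49 and 35.48 with shRNA2. The groups did not overlap. With shRNA2 the rise was 0.57 ± 0.08 (adjusted p = 1.39e-05), whereas the shRNA1 value of 0.21 ± 0.08 did not pass (adjusted p = 0.0669). It passed under 11 of the 19 alternatives, among them the fits without shRNA1 replicate 3, at 0.25, and without shRNA2 replicate 2 or 3, at 0.21 each.

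Mrpl50 (chr4:49512596-49521093), a mitochondria-specific large-subunit protein, was at 41.01 and 42.05 CPM in the controls, at 48.53, 44.82 and 42.92 with shRNA1, and at 57.76, 61.38 and 54.16 with shRNA2. All shRNA2 libraries were above the other 5. In log2 units the hairpins gave 0.13 ± 0.08 (adjusted p = 0.221) and 0.48 ± 0.08 (adjusted p = 3.46e-05).

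**Figure D3:**
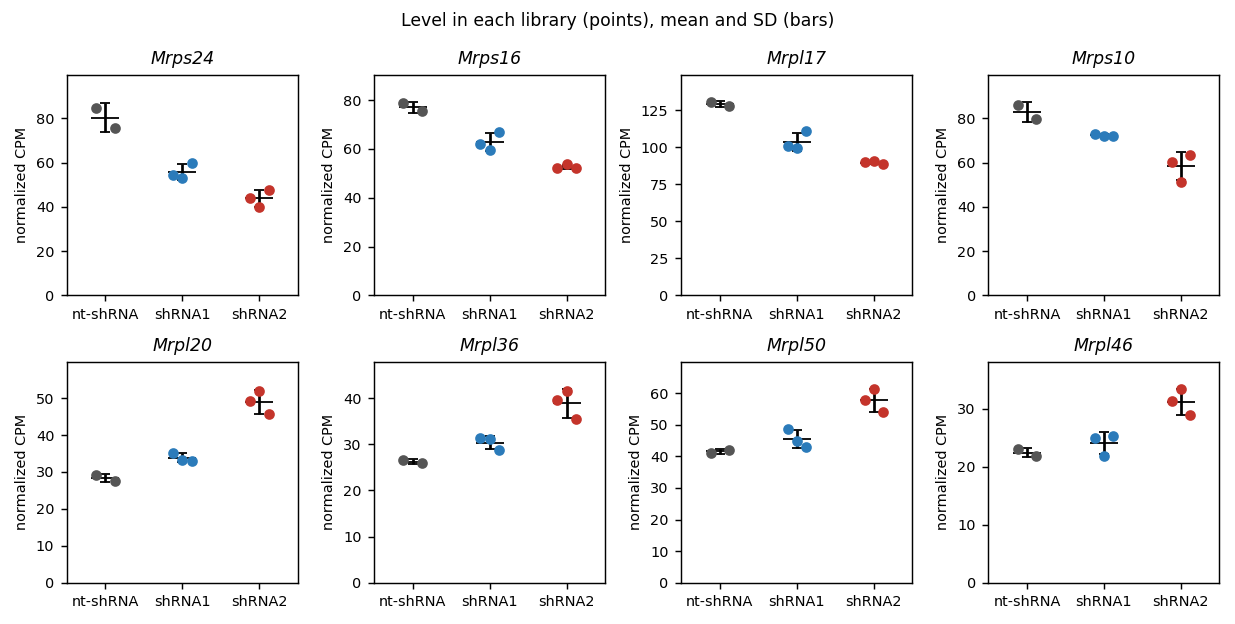
TMM-normalized CPM in each library (points) with the group mean and SD (bars) for 4 members that fell (top) and 4 that rose (bottom) with shRNA2. Mrps24 goes from 84.79 and 75.5 CPM with nt-shRNA to between 39.82 and 47.55 with shRNA2, and Mrpl20 from 29.09 and 27.59 to between 45.62 and 52.0.

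The head-to-head genes Mrpl46 and Mrps11 both rose with shRNA2. Mrpl46, a mitochondria-specific large-subunit protein, was at 23.09 and 21.88 CPM with nt-shRNA, at 25.03, 21.96 and 25.31 with shRNA1, and at 31.3, 33.42 and 28.92 with shRNA2. Mrps11, the S11 homologue of the small subunit, was at 23.02 and 20.83, at 22.64, 24.24 and 23.28, and at 28.79, 32.33 and 27.4 CPM in the same groups. In both genes shRNA1 overlapped the controls and shRNA2 stood above all other libraries. With shRNA2 the log2 fold change was 0.47 ± 0.09 for Mrpl46 (adjusted p = 0.000231) and 0.43 ± 0.09 for Mrps11 (adjusted p = 0.000585), and the shRNA1 values were 0.10 ± 0.09 and 0.09 ± 0.09 (adjusted p = 0.421 and 0.474). They share 173 exon bases, where fragments could not be assigned to either gene.

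Other rises with shRNA2 were found in the small subunit in Mrps18b, a paralogue of the S18 family (0.36 ± 0.09, adjusted p = 0.00154), Mrps22, found only in mitochondria (0.36 ± 0.08, adjusted p = 0.000571), and Mrps7, the S7 homologue (0.32 ± 0.08, adjusted p = 0.00145). In all of these the shRNA2 libraries lay above those of both other groups. Mrps18b shared 30.5% of its exon bases with Gm16279. The shRNA1 values were 0.02, 0.08 and 0.10, in the same order, and did not pass (adjusted p = 0.892, 0.435 and 0.348). Mrpl3, the L3 homologue near the peptidyl transferase centre, rose by 0.30 ± 0.08 with shRNA2 (adjusted p = 0.00237), from 56.79 and 53.31 CPM with nt-shRNA to 67.52, 71.75 and 64.03, with its shRNA1 libraries at 62.56, 62.39 and 55.11. The further higher calls with shRNA2 were Mrps18c (0.31), Mrpl19 (0.29), Mrpl47 (0.28), Mrpl37 (0.28), Mrpl18 (0.25), Mrps31 (0.22), Mrpl43 (0.22), Mrpl35 (0.20) and Mrps23 (0.20).

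Mrpl1, Mrps6 and Mrpl9 complete the higher calls. Mrpl1, the homologue of the L1 protein of the stalk beside the exit site, rose with both hairpins, by 0.28 ± 0.09 with shRNA1 (adjusted p = 0.0229) and 0.26 ± 0.09 with shRNA2 (adjusted p = 0.019). Its shRNA2 call was lost without either control library or shRNA2 replicate 1, at 0.23, 0.28 and 0.23. With GC offsets neither call of Mrpl1 passed, at 0.17 with shRNA1 and 0.12 with shRNA2. Mrps6, the S6 homologue, was at 0.26 ± 0.09 with shRNA1 (adjusted p = 0.0337) and 0.19 ± 0.09 with shRNA2 (adjusted p = 0.078). The latter passed under 7 of the 19 alternatives, among them the fit without shRNA2 replicate 2, at 0.23. Mrpl9, the L9 homologue, was at 48.66 and 50.1 CPM with nt-shRNA, at 46.86, 45.11 and 46.13 with shRNA1, and at 56.04, 66.11 and 56.13 with shRNA2. The shRNA1 libraries were just below the controls and the shRNA2 libraries above them. It was called higher with shRNA2 (log2 fold change 0.27 ± 0.08, adjusted p = 0.0067), a call lost without nt-shRNA replicate 1, at 0.24, and the value with shRNA1 was -0.10 ± 0.08 (adjusted p = 0.346).

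The members with the highest levels per exon length did not all move. Mrpl2 was at 88.02 and 86.23 CPM with nt-shRNA, at 81.32, 84.75 and 92.72 with shRNA1, and at 86.17, 88.84 and 84.63 with shRNA2, so that the groups overlapped throughout. Its log2 fold changes were -0.01 ± 0.07 with both hairpins (adjusted p = 0.906 and 0.914). With offsets for GC content the shRNA2 value was 0.17 and passed. Mrpl34 was at -0.15 ± 0.08 with both hairpins (adjusted p = 0.177 and 0.113), and without shRNA2 replicate 2 its shRNA2 value passed at -0.20. Mrpl12 was at -0.11 ± 0.08 and 0.07 ± 0.08 (adjusted p = 0.303 and 0.482). Of the members with the lowest levels, Mrpl33 was at -0.12 ± 0.08 with shRNA1 (adjusted p = 0.277) and -0.18 ± 0.08 with shRNA2 (adjusted p = 0.0517). The latter passed under 5 of the 19 alternatives, among them the fit without shRNA1 replicate 3, at -0.18. Mrpl48 was at -0.05 ± 0.09 and 0.13 ± 0.09 (adjusted p = 0.672 and 0.213).

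The fit was precise enough to bound the change of most members, called ones included. The SE of a member's log2 fold change had a median of 0.0768 in both comparisons with nt-shRNA. With shRNA1, the 95% interval lay wholly within 1.5-fold of no change for 76 of the 77 members, and with shRNA2 for 67.

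The hairpins were also compared with each other. Relative to shRNA1, 21 members were higher with shRNA2 and 5 were lower, while over all tested genes 16.9% were called higher and 18.7% lower (35.6% either way). The members' share of higher calls was 27.3% and that of lower calls 6.49%. Their median log2 difference was 0.11, beside 0.00 over all tested genes. The 5 lower members were Mrps24, Mrps10, Mrps16 (-0.26 ± 0.06, adjusted p = 0.00374), Mrpl24 (-0.22 ± 0.06, adjusted p = 0.00892) and Mrpl17 (-0.21 ± 0.06, adjusted p = 0.00717). Mrps10 was at -0.31 ± 0.07 (adjusted p = 0.00229). The highest were Mrpl20, Mrpl46 (0.37 ± 0.08, adjusted p = 0.00184), Mrpl9 (0.37 ± 0.07, adjusted p = 0.000537), Mrpl36 (0.36 ± 0.08, adjusted p = 0.00121) and Mrpl50 (0.35 ± 0.07, adjusted p = 0.000709). In the large subunit 15 were higher and 2 lower of 50, and in the small subunit 6 were higher and 3 lower of 26. The count of higher members rested in part on shRNA2 replicate 2, without which 11 were higher and 5 lower. Both comparisons with nt-shRNA share the same 2 control libraries, and this direct comparison shares its libraries with each of them.

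The calls that held under all 19 alternatives were fewer. With shRNA1 they were the falls of Mrps24, Mrpl17 and Mrpl28. With shRNA2 they were the falls of Mrps24, Mrps16, Mrpl17, Mrps10, Mrpl24, Mrpl28 and Mrpl57 and the rises of 11 members, namely Mrpl20, Mrpl36, Mrpl50, Mrpl46, Mrps11, Mrps18b, Mrps22, Mrps7, Mrpl3, Mrpl19 and Mrpl37. Between the hairpins all 5 lower members and 11 of the higher members held.

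The members were shorter genes with fewer introns than the median tested gene. They had between 1 and 11 introns in the principal transcript with a median of 4, against a median of 6 over all tested genes, and a median exon length of 2533 bases, against 3755. Their median GC content of 50.12% was close to the 50.23% of all tested genes. Across the 77 members, the log2 fold change with shRNA2 had a Pearson r of 0.144 with the number of introns, of -0.027 with log2 exon length, of -0.104 with GC content and of -0.218 with log2 RPKM. For shRNA1 these were 0.118, -0.07, -0.13 and -0.191. Across all tested genes the values in the same order were -0.068, 0.018, -0.195 and -0.312 with shRNA2. With shRNA1 they were -0.013, 0.061, -0.205 and -0.416. Against nt-shRNA, the relations with GC content and level were thus weaker among the members than among all genes. The level was that with nt-shRNA, whose libraries also enter these fold changes, which can by itself make r negative. Between the hairpins the r with this level was -0.181 among the members and -0.046 among all tested genes. Among the members all are weak, and genes share libraries and are not replicates. Members with more than 3 introns had 13 higher and 7 lower calls of 41 with shRNA2, and those with 3 introns or fewer had 7 higher and 8 lower of 36, where 27.2% of all tested genes were higher and 28.7% lower.

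Some members share exon bases with neighbouring genes. Of the 23 tested members that shared at least 5% of their exon bases with another gene, 10 were higher and 2 lower with shRNA2, and of the 54 with less sharing, 10 were higher and 13 lower. The median log2 fold change was 0.16 in the former and -0.01 in the latter. With shRNA1 the former had 1 higher and 3 lower and the latter 2 higher and 8 lower. Over all tested genes 27.2% were higher and 28.7% lower with shRNA2, and 13.8% and 17.1% with shRNA1. Fragments in shared exon bases were left out of the counts, and the part of this in the result was not tested.

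A further 5 proteins of the mitoribosome carry names outside the rule, and they moved in both directions. Dap3, a GTP-binding protein of the small subunit, was at 168.3 and 174.3 CPM with nt-shRNA, at 153.7, 143.3 and 146.2 with shRNA1, and at 123.8, 119.7 and 127.5 with shRNA2. It was lower in every hairpin library than in both controls, by -0.21 ± 0.06 log2 units with shRNA1 (adjusted p = 0.0101) and, with shRNA2, by -0.47 ± 0.06 (adjusted p = 2e-06). The shRNA1 call was lost without nt-shRNA replicate 2 or shRNA1 replicate 2, at -0.19 each. Ptcd3, a pentatricopeptide repeat protein of the small subunit, rose from 159.5 and 161.7 CPM to 200.3, 191.4 and 163.8 with shRNA1 and to 225.8, 213.6 and 211.3 with shRNA2, at 0.20 ± 0.07 (adjusted p = 0.0404) and 0.43 ± 0.07 (adjusted p = 5.8e-05). The former was lost without either control library or shRNA1 replicate 1 or 2, with values between 0.14 and 0.21, and with GC offsets, at 0.11. With library size alone the shRNA1 calls of Dap3, Chchd1 and Gadd45gip1 were lost, at -0.10, -0.15 and -0.16, as was the shRNA2 call of Chchd1, at -0.13. Chchd1, a small-subunit protein, was at -0.26 ± 0.08 (adjusted p = 0.0158) and -0.22 ± 0.08 (adjusted p = 0.0252), and both calls were lost without either control library, at -0.27 and -0.25 for shRNA1 and at -0.23 and -0.21 for shRNA2. The shRNA2 call of Chchd1 was also lost without shRNA2 replicate 1, at -0.19. Gadd45gip1, a large-subunit protein, was at -0.28 ± 0.10 (adjusted p = 0.047) and -0.12 ± 0.10 (adjusted p = 0.337), its shRNA1 call lost under 13 of the 19 alternatives, including without either control library, at -0.22 and -0.34. It was also lost without shRNA1 replicate 1, shRNA1 replicate 2 or shRNA2 replicate 1, at -0.23, -0.27 and -0.27. Aurkaip1, of the small subunit, was at -0.08 ± 0.08 and 0.13 ± 0.08 and passed with neither hairpin against the control (adjusted p = 0.469 and 0.171). Its shRNA2 value passed under 5 of the 19 alternatives, those with library size alone and with length or GC offsets, at between 0.19 and 0.33.

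Factors that build the mitoribosome were called at shares near those of all genes, except for higher calls with shRNA1. Of the 26 tested assembly factors, 9 were higher (34.6%, against 27.2% of all tested genes) and 6 lower (23.1%, against 28.7%) with shRNA2. Their median log2 fold change was 0.10. With shRNA1 the 5 that passed were all lower (19.2%, against 17.1%), and 0 were higher, against 13.8% of all tested genes. The shRNA1 median was -0.02. Malsu1, a factor that binds the large subunit before the subunits join, was at 58.48 and 54.63 CPM with nt-shRNA, at 40.05, 38.06 and 43.71 with shRNA1, and at 32.65, 33.87 and 36.76 with shRNA2. It fell without overlap, by -0.47 ± 0.08 (adjusted p = 0.000145) and -0.72 ± 0.08 (adjusted p = 3.57e-07) on the log2 scale. Mpv17l2 was at -0.28 ± 0.08 (adjusted p = 0.0133) and -0.62 ± 0.08 (adjusted p = 4.29e-06), and Tfb1m, the methyltransferase of the small-subunit RNA, at -0.37 ± 0.09 (adjusted p = 0.00494) and -0.57 ± 0.09 (adjusted p = 4.75e-05). With GC offsets Mpv17l2 was at -0.14 with shRNA1 and missed the threshold, and at -0.41 with shRNA2 and passed. The shRNA1 calls were lost without nt-shRNA replicate 1 or shRNA1 replicate 1 for Mpv17l2, at -0.19 and -0.24, and without nt-shRNA replicate 2 for Tfb1m, at -0.31.

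The assembly factors Mettl17, Mterf3 and the pseudouridine synthase Trub2 rose with shRNA2. Mettl17 was at 19.01 and 19.79 CPM with nt-shRNA, at 19.94, 17.47 and 19.32 with shRNA1, and at 27.67, 28.0 and 26.94 with shRNA2, where it stood above the control by 0.51 ± 0.09 log2 units (adjusted p = 8.78e-05), with shRNA1 at -0.04 ± 0.09 (adjusted p = 0.803). Only its shRNA2 libraries stood apart from the rest. Mterf3 was at 0.38 ± 0.08 (adjusted p = 0.000515) and Trub2 at 0.32 ± 0.07 (adjusted p = 0.00105) with shRNA2, and at 0.12 and 0.03 with shRNA1 (adjusted p = 0.293 and 0.827).

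Among 15 factors of mitochondrial translation and mRNA handling, 5 were higher and 3 lower with shRNA2 (33.3% and 20%, against 27.2% and 28.7% of all tested genes). With shRNA1, 2 were higher and 4 lower (13.3% and 26.7%, against 13.8% and 17.1%). The median log2 fold change of these factors was 0.15 with shRNA2 and 0.00 with shRNA1. Guf1, an elongation factor, was at 54.88 and 52.33 CPM with nt-shRNA, at 35.77, 34.26 and 33.72 with shRNA1, and at 32.27, 31.61 and 33.23 with shRNA2. Both hairpins lay far below the controls, at -0.63 ± 0.07 (adjusted p = 2.61e-06) and -0.73 ± 0.07 (adjusted p = 8.22e-08). Gfm2, which acts in ribosome recycling, was at -0.29 ± 0.06 (adjusted p = 0.00177) and -0.52 ± 0.06 (adjusted p = 1.53e-06). Mtrf1, of the release factor family, was at -0.35 ± 0.13 (adjusted p = 0.0497) and -0.48 ± 0.13 (adjusted p = 0.00412), the latter lost without nt-shRNA replicate 2, at -0.36. The shRNA1 call of Mtrf1 was lost under 13 of the 19 alternatives, including without either control library, shRNA1 replicate 1 or 3, or shRNA2 replicate 1, with values between -0.46 and -0.22. Lrpprc, which binds and stabilizes mitochondrial mRNAs, rose by 0.41 ± 0.08 (adjusted p = 0.000389) and 0.51 ± 0.08 (adjusted p = 1.14e-05). Its partner Slirp was at 0.36 ± 0.15 (adjusted p = 0.0667) and 0.61 ± 0.14 (adjusted p = 0.00138). The former passed under 6 of the 19 alternatives, among them the fit without shRNA1 replicate 3, at 0.49. The initiation factor Mtif3 was at 0.11 ± 0.10 (adjusted p = 0.4) and 0.42 ± 0.10 (adjusted p = 0.0012).

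Of 11 tested regulators of mitochondrial transcription and biogenesis, the 7 that passed with shRNA2 were all higher, with a median log2 fold change of 0.21, and 1 was higher with shRNA1. Over all tested genes 27.2% were higher with shRNA2 and 13.8% with shRNA1. Myc, a transcription factor that drives growth genes, was at 0.30 and 0.70 CPM with nt-shRNA, at 0.54, 0.89 and 0.43 with shRNA1, and at 2.98, 6.27 and 1.56 with shRNA2. Its shRNA2 libraries were above all others but differed widely among themselves, and its log2 fold change was 2.83 ± 0.49 (adjusted p = 6.99e-05), with 0.25 ± 0.64 for shRNA1 (adjusted p = 0.804). Tfam, which packages and transcribes mitochondrial DNA, was at 0.36 ± 0.07 with shRNA2 (adjusted p = 0.00019) and 0.10 ± 0.07 with shRNA1 (adjusted p = 0.266). Gabpb1, a subunit of GABP, was at 0.32 ± 0.07 (adjusted p = 0.000717) and 0.10 ± 0.07 (adjusted p = 0.276), in the same order. Gabpa, also of GABP, passed with neither hairpin, at 0.05 with shRNA2 (adjusted p = 0.536) and 0.14 with shRNA1 (adjusted p = 0.13). Nrf1 was higher with shRNA2 at 0.265 (adjusted p = 0.00187) and Yy1 at 0.21 (adjusted p = 0.00475), and neither passed with shRNA1.

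The genes taken as cytosolic ribosomal proteins, the counterpart of the members in the cytosol, moved mostly one way. They are the 98 protein-coding genes whose symbol begins with Rpl or Rps and a digit. This rule by name also takes in Rps6k kinase genes and leaves out ribosomal proteins with other symbols. Of 95 tested, 75 were lower and 3 higher with shRNA1 (median log2 fold change -0.39), and 69 were lower and 7 higher with shRNA2 (median -0.33). For the nuclear-encoded OXPHOS subunits, whose mitochondria-encoded partners the mitoribosome makes, 36 of 81 were lower and 3 higher with shRNA1 (median -0.17), and 40 were lower and 5 higher with shRNA2 (median -0.16). The members, with medians of -0.10 and 0.04, lay closer to the median of all genes than either list. Of the 13 mRNAs of the mitochondrial genome, 7 passed the filter, and of these 4 were higher with shRNA1, while 3 were higher and 2 lower with shRNA2. Fragments in several genes or places were left out of the counts, and the part of this in these mRNAs' values was not tested. For all tested genes the shares were 17.1% lower and 13.8% higher with shRNA1, and 28.7% lower and 27.2% higher with shRNA2. The differences between these lists were not tested.

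**Figure D4:**
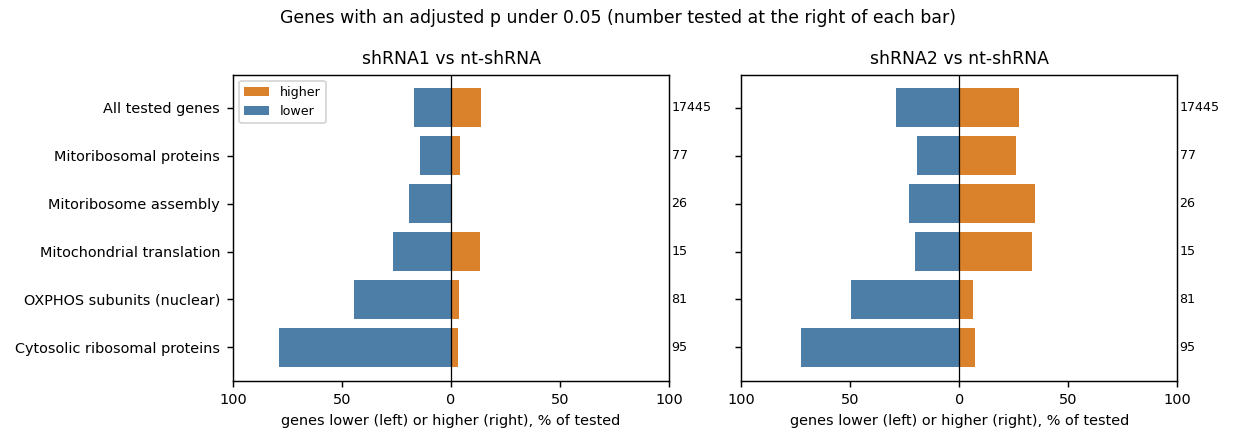
Share of tested genes called lower (left of 0) or higher (right of 0), in percent, for shRNA1 (left panel) and shRNA2 (right panel) against nt-shRNA, with the number tested at the right. The mitoribosomal proteins had 14.3% lower and 3.9% higher with shRNA1 and 19.5% lower and 26.0% higher with shRNA2. The genes taken by name as cytosolic ribosomal proteins had 78.9% and 72.6% lower.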

How the data were processed

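RNA from R1 mESCs was sequenced after poly(A) selection as paired 100 bp reads. The authors aligned reads with STAR to mm10, counted fragments on the exons of GENCODE M24 genes with featureCounts 1.6.2 without strand and without fragments in several genes or places, and deposited the raw counts per gene. Unstranded counting cannot tell overlapping or antisense genes apart. Symbols and coordinates came from GENCODE M21 by identifier, for 55144 genes. Pseudogenes were not members. Fits used all 8 libraries in R 4.3.3 with edgeR 4.0.16 (filterByExpr with a minimum count of 10, TMM, glmQLFit and glmQLFTest, a coefficient per group, no block, Benjamini-Hochberg adjustment over 17445 genes). The SE of a log2 fold change was derived from the F statistic, and the biological coefficient of variation was 0.0638. RPKM used the deposited exon length and TMM-scaled library sizes. At this depth 3 counts equal between 0.1045 and 0.1481 normalized CPM, which covers counting error only. Within groups, pairs of libraries differed by a chi-square of 3.013 to 11.76 per gene, so none repeats another. The p-values measure the spread between the labelled biological replicates. The code was tested on simulated counts whose changes were larger than that of any member, so smaller changes were not covered.

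Members and gene lists were chosen with earlier results of these data known. The genes described with full statistics were those with the largest called changes per comparison (8 on each side against nt-shRNA, 5 between hairpins), the 5 highest and 3 lowest members by level, Mrpl53, Mrps36, Eftud2, the 5 proteins outside the name rule and, in the lists of factors and regulators, the 3 lower and 3 higher genes of smallest adjusted p with shRNA2. Other members, such as Mrpl15 and Mrpl3, are named to complete counts or to refer to a sequence. Gabpa, Nrf1 and Yy1 are named as factors of the motifs searched. All of these were chosen after their values were seen. Alternatives were DESeq2 1.42.0 (the authors' test) and its size factors, library size alone, other filters, fits of the compared groups, a replicate block, offsets for gene length and GC content, and leaving out each library. Sequences were taken from RefSeq on GRCm38.p6. Figures were drawn with matplotlib 3.10.9.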

Additional observations from a re-analysis of the deposited data

How the results depend on the processing

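Of the results given as counts or medians, those below moved, and where no cause is named the cause was not tested. For shRNA1 against nt-shRNA, where 3 members were higher and 11 lower, the higher members numbered 12 with library size alone, 6 with at least 10 counts in every library, 6 in the fit of the compared groups, 6 with the replicate block, 5 with length offsets, 8 with length offsets and the block, 5 with GC offsets and 7 with GC offsets and the block, and the lower members 4 with library size alone and 17 with GC offsets and the block. Leaving out 1 library gave 0 to 5 higher and 4 to 14 lower, 3 to 13 large-subunit calls and 1 to 6 small-subunit calls, while GC offsets gave 7 small-subunit calls and 9 with the block. The members' median of -0.10 went to 0.011 with library size alone, -0.072 with the stricter filter, -0.069 with length offsets and with GC offsets, -0.049 with length offsets and the block, -0.054 with GC offsets and the block, and -0.112 to -0.072 without 1 library.

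For shRNA2 against nt-shRNA, leaving out 1 library gave 11 to 22 higher, 8 to 17 lower, 12 to 24 large-subunit and 7 to 12 small-subunit calls. Library size alone gave 7 lower and a median of 0.124 in place of 0.035, and its shift of the all-gene median is part of its construction. The median turned to -0.005 without nt-shRNA replicate 2 or shRNA2 replicate 2. Between the hairpins, leaving out 1 library gave 11 to 26 higher and 9 to 21 large-subunit calls. Keeping the 54 members with under 5% shared exon bases, an alternative chosen after seeing the data, left 10 higher with shRNA2 and 3 lower between hairpins, over fewer genes. The share of counts in members was 0.3886%, 0.3931% and 0.4085% of protein-coding counts with nt-shRNA, shRNA1 and shRNA2, and 6 of the 10 highest members stayed so by principal transcript length.

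Mrpl2 with shRNA2 changed sign, to 0.17 with GC offsets and to 0.18 with GC offsets and the replicate block. Deviations of same-numbered libraries from their group mean correlated weakly, at between -0.026 and 0.074. The 2 control libraries mirror each other in this measure, so their values cannot show a pairing. Between the hairpins the same-numbered values were 0.022, 0.057 and 0.074, and the others ran from -0.083 to 0.028. Whether replicate numbers pair the libraries is thus not settled. With the block as a fit, 6 members were higher and 13 lower with shRNA1, 20 and 17 with shRNA2, and 21 and 5 between hairpins. The share of all tested genes called went from 30.9% to 34.5%, from 55.9% to 57.5% and from 35.6% to 37.4%, in the same order. The control group held 2 libraries, and no change in a member with shRNA1 exceeded 1.5-fold.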
